A study of Mus musculus with 9 samples.

Results

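Expression of 10 genes of the Notch pathway was described across the 9 cell type labels of a single-cell RNA sequencing study of blood vessels of the adult mouse brain. The genes were taken by name and are the receptors Notch1, Notch3 and Notch4, the ligands Dll4, Jag1 and Jag2, and the transcriptional targets Hey1, Hey2, Heyl and Hes1. They make up 10 of the 46517 gene rows of the count table, and all 10 reached 20 CPM (reads per 1000000 reads of the label) in at least 1 label. Microvascular fragments were isolated from brain and digested to single cells, whose names carry a plate and a well, and libraries were made by SMART-seq2, a method that reads full-length transcripts of single cells. The labels were aEC (116 cells), vEC (45), CP-EC (17), capilEC (787), vSMC (29), aSMC (41), PC (54), FB (9) and MG (137). No treatment, strain, sex, age in weeks or number of animals is stated in the sources used here beyond adult mice.

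Notch signalling passes between touching cells. A ligand of the Delta-like or Jagged family on one cell binds a Notch receptor on its neighbour, the receptor is cut by ADAM10 and then by gamma-secretase, and the freed intracellular part joins the DNA-binding protein RBPJ and a Mastermind coactivator to switch on genes of the HES and HEY families, which encode basic helix-loop-helix repressors. In blood vessels the pathway is known for its part in arterial identity and in limiting sprouting, through DLL4 and NOTCH1 in endothelium, and for the maturation of smooth muscle and pericytes through JAG1 and NOTCH3. In humans, mutations in NOTCH3 cause the small-vessel disease CADASIL.

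The 1235 cells held 100021 to 854836 reads each, with a median of 202225, and lay on 4 plates named s169s, s480s, s482s and s483s. Median depth per label lay between 158325 reads (PC) and 269635 reads (aSMC). Each label was 1 sample, so no p-value is given: values are CPM of the reads summed over a label's cells, with the values of the plates that held at least 5 of its cells as the only view of spread. Whether the plates held different animals is not stated. Exact Poisson intervals cover the counting of reads only, and exact binomial intervals the counting of cells. Reads carried no molecular identifiers, so the Poisson intervals cover neither the counting of molecules nor the spread between cells. CP-EC reached 5 cells on plate s483s only, and FB on no plate. The labels are not spelled out, so they were set against marker genes. The 10 endothelial markers summed to 12131 CPM in aEC, 9517 CPM in vEC, 12900 CPM in CP-EC and 13702 CPM in capilEC. Apart from Notch3, the mural markers summed to 12525 CPM in vSMC, 6872 CPM in aSMC and 11006 CPM in PC, against 60.1 to 685 CPM in the other labels. Fibroblast markers led in FB (9332 CPM), microglial markers in MG (22722 CPM) and choroid plexus endothelial markers in CP-EC (3940 CPM). The 5 arterial endothelial markers summed to 1581 CPM in aEC, against 298 CPM in vEC, 202 CPM in CP-EC and 113 CPM in capilEC, but they were higher in vSMC (2402 CPM), aSMC (1781 CPM) and PC (1668 CPM), so they set aEC apart from the other endothelial labels only. The 5 venous markers summed to 3487 CPM in vEC, against 115 to 348 CPM in the other endothelial labels, and the 5 capillary markers to 5239 CPM in capilEC, against 1776 to 3220 CPM. The vSMC cells held pericyte markers at 5860 CPM beside smooth muscle markers at 10862 CPM. Mural cells also held endothelial markers, at 3386 CPM in PC, 2797 CPM in vSMC and 1302 CPM in aSMC, with none of the 10 markers at 0.

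Plate s169s stood apart, with a median of 159000 reads per cell against 223295 to 238701 on the others. In capilEC, the label with the most cells, Notch1 was the member furthest below its level on the other plates on log2(CPM + 5). There Notch1 was at 65.2 CPM on s169s, against 597 to 830.1 CPM on the other 3 plates, a log2 difference of -3.30. Of 4400 genes at 50 CPM or more in capilEC, 33 (0.75%) were at least 8-fold lower on that plate. In labels with fewer cells on s169s other members lay further below the other plates. Notch4 in the 7 aEC cells was at 3.96 CPM, against 94.8 to 179 CPM, Notch3 in the 7 aSMC cells at 39.5 CPM, against 429.7 to 689 CPM, and Heyl in the 9 vSMC cells at 0 CPM, against 159 to 811 CPM. Notch1 was lowest on s169s in all 7 labels that filled 4 plates. Notch3 was lowest there in 6 of the 7 labels, while Hes1 was highest there in 4 of them. In capilEC cells Jag2 (-1.59), Notch4 (-0.92) and Dll4 (-0.72) were also lower on s169s, Jag1 (1.48) and Hes1 (0.94) were higher, and Hey1 differed by 0.03. The part of the plate in these levels was not tested, and values without it are given where they change a result.

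**Figure D1:**
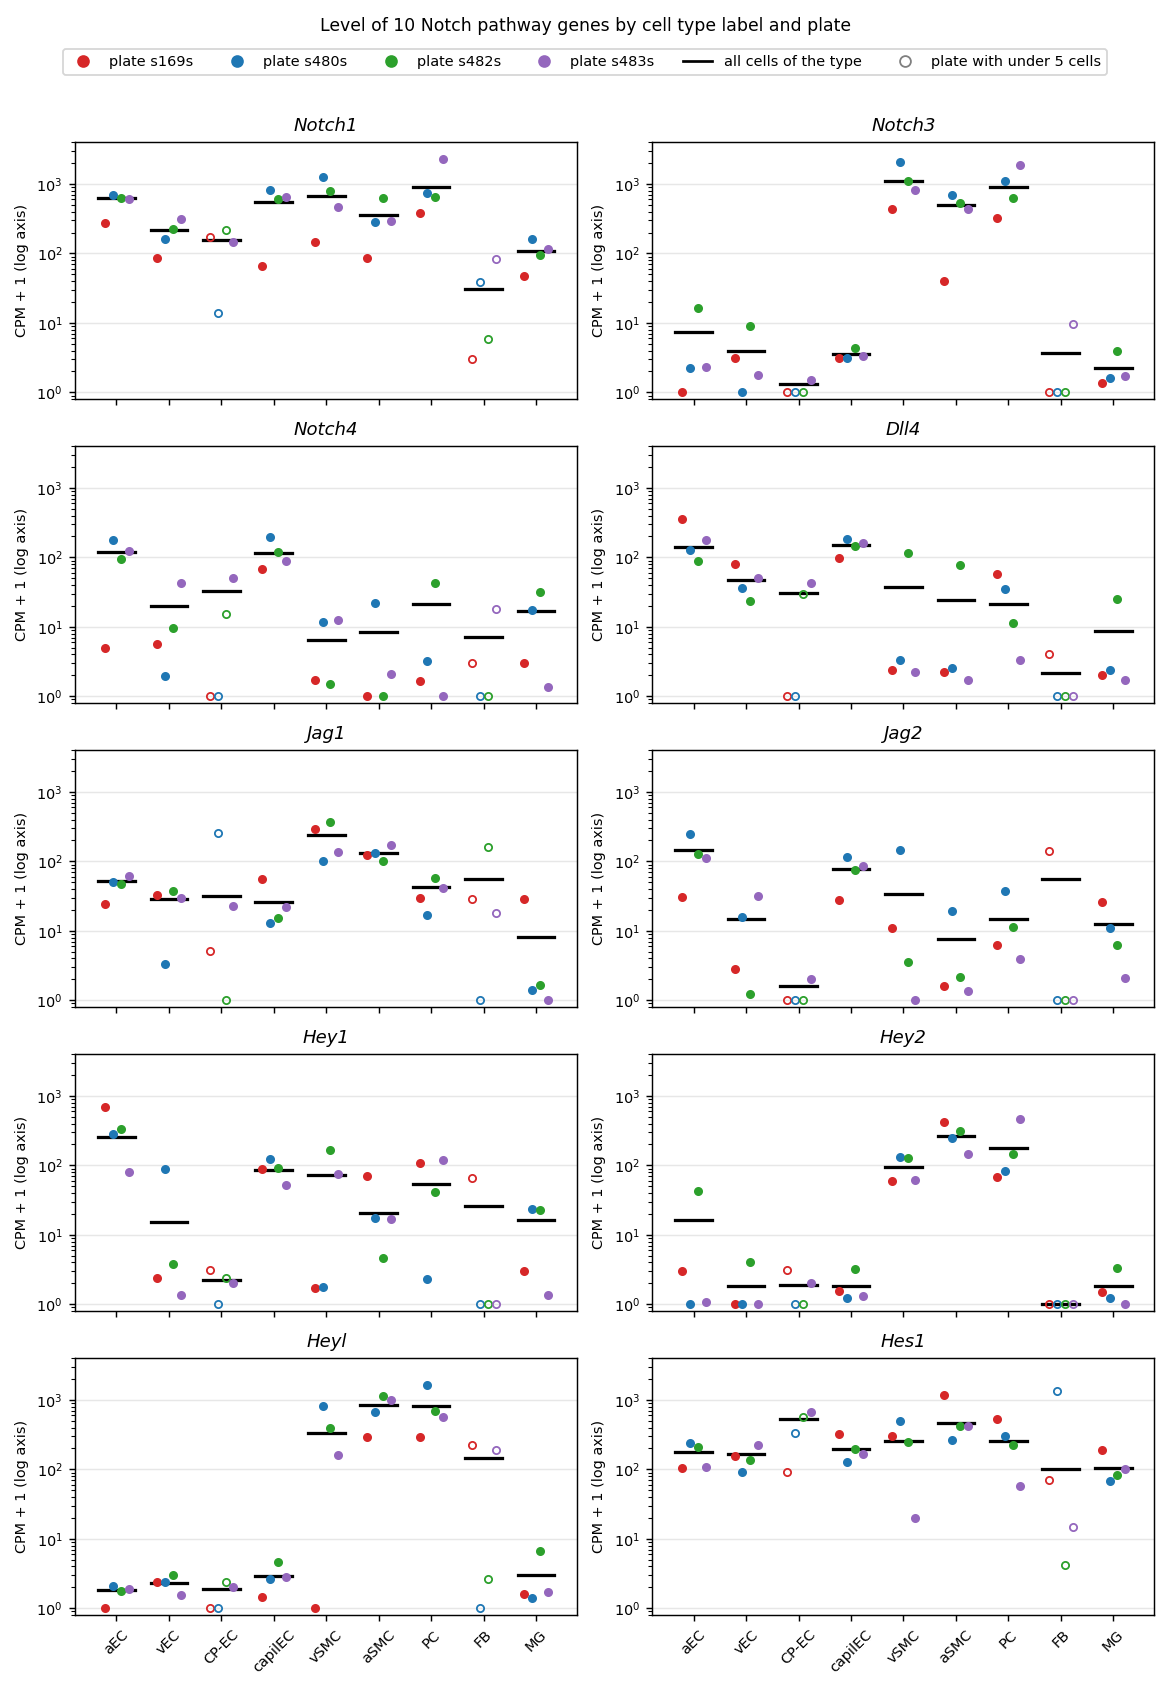
Level of each gene (CPM + 1, log axis) in the 9 cell type labels. Black bars are all cells of a label, coloured points are plates, and open points are plates with under 5 cells of the label. Notch3, Hey2 and Heyl lie at 15.4 CPM or below in every endothelial label and at 95.2 CPM or above in vSMC, aSMC and PC.

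Among the receptors, Notch1 was read throughout the vessel wall. Notch1 (chr2:26457903-26516663, minus strand, GRCm38) stood at 617 CPM in aEC, 220 CPM in vEC, 155 CPM in CP-EC and 549 CPM in capilEC. It was at 665 CPM in vSMC, 357 CPM in aSMC and 899.7 CPM in PC, and at 29.7 CPM in FB and 109 CPM in MG. From PC down to vEC, each label overlapped its neighbour in the order when the ranges over plates were compared: the PC plates lay between 377 and 2317 CPM and the vEC plates between 86.0 and 311 CPM. With every cell thinned to 100000 reads, Notch1 was read in 85.3% of aEC, 86.7% of vEC, 77.9% of capilEC and 81.5% of PC cells, but also in 59.9% of MG cells. The MG label carries microglial markers and is given beside each share for comparison. Whether its reads of the members are background or expression was not tested. MG held 5.13% of the summed endothelial marker level of capilEC and 19.8% of its Notch1 level. In the 124 MG cells without markers of another class, Notch1 was at 93.3 CPM. The median depth of MG before thinning was 232674 reads, against 192941 in capilEC and 158325 in PC. Levels per cell were uneven: the median capilEC cell held 26.1 CPM of Notch1, and the median PC cell 173 CPM.

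Notch3, the receptor of mural cells, was the most label-bound of the receptors. Notch3 (chr17:32120820-32166852, minus strand) stood at 6.39 CPM in aEC, 2.98 CPM in vEC, 0.302 CPM in CP-EC and 2.51 CPM in capilEC. It was at 1088 CPM in vSMC, 494 CPM in aSMC and 890.4 CPM in PC, and at 2.74 CPM in FB and 1.23 CPM in MG. The highest endothelial plate held 15.2 CPM, and the plates of the 3 mural labels lay between 39.5 CPM (aSMC on s169s) and 2071 CPM (vSMC on s480s), so the groups did not overlap. Thinned shares with a read were 11.4% of capilEC cells, against 86.2% of vSMC (95% interval 68.3 to 96.1), 73.2% of aSMC (57.1 to 85.8) and 79.6% of PC cells (66.5 to 89.4), with 8.03% of MG cells. In aEC, 1 cell held 80.0% of the Notch3 reads, and without it the level was 1.30 CPM.

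Notch4, a receptor known from endothelium, followed the arterial and capillary labels. Notch4 (chr17:34564268-34588503, plus strand) was at 120.1 CPM in aEC, 19.1 CPM in vEC, 31.4 CPM in CP-EC and 116 CPM in capilEC. It was at 5.56 CPM in vSMC, 7.40 CPM in aSMC, 20.6 CPM in PC, 6.26 CPM in FB and 15.7 CPM in MG. The 2 highest labels could not be ordered, since aEC lay above capilEC on 1 of 4 plates. A read was found in 38.8% of aEC and 31.5% of capilEC cells, against 18.2% of MG cells and 10.3% of vSMC cells, so the shares in vSMC, aSMC (17.1%) and PC (20.4%) were at or near that of MG.

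Levels of the receptors were set side by side per kb of exon, over the union of all annotated exons (14.232 kb for Notch1 and 8.089 kb for Notch3). Notch1 took 72.6% of the summed Notch1 to Notch4 level per kb in aEC, 84.5% in vEC, 67.5% in CP-EC and 71.3% in capilEC. Notch4 took 24.9% in aEC, 12.9% in vEC, 24.1% in CP-EC and 26.6% in capilEC. The mural labels had another make-up, with Notch3 at 73.1% in vSMC, 66.7% in aSMC and 60.1% in PC, and Notch1 at 25.4%, 27.4% and 34.5% in the same labels. In PC the split came from the exon lengths, since Notch1 (899.7 CPM) and Notch3 (890.4 CPM) were alike before scaling. In vSMC and aSMC Notch3 was the higher before scaling too. Summed over the 4 receptors, the level was 59.7 CPM per kb in aEC, 54.1 in capilEC and 18.3 in vEC, against 184 in vSMC, 91.5 in aSMC and 183 in PC.

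**Figure D2:**
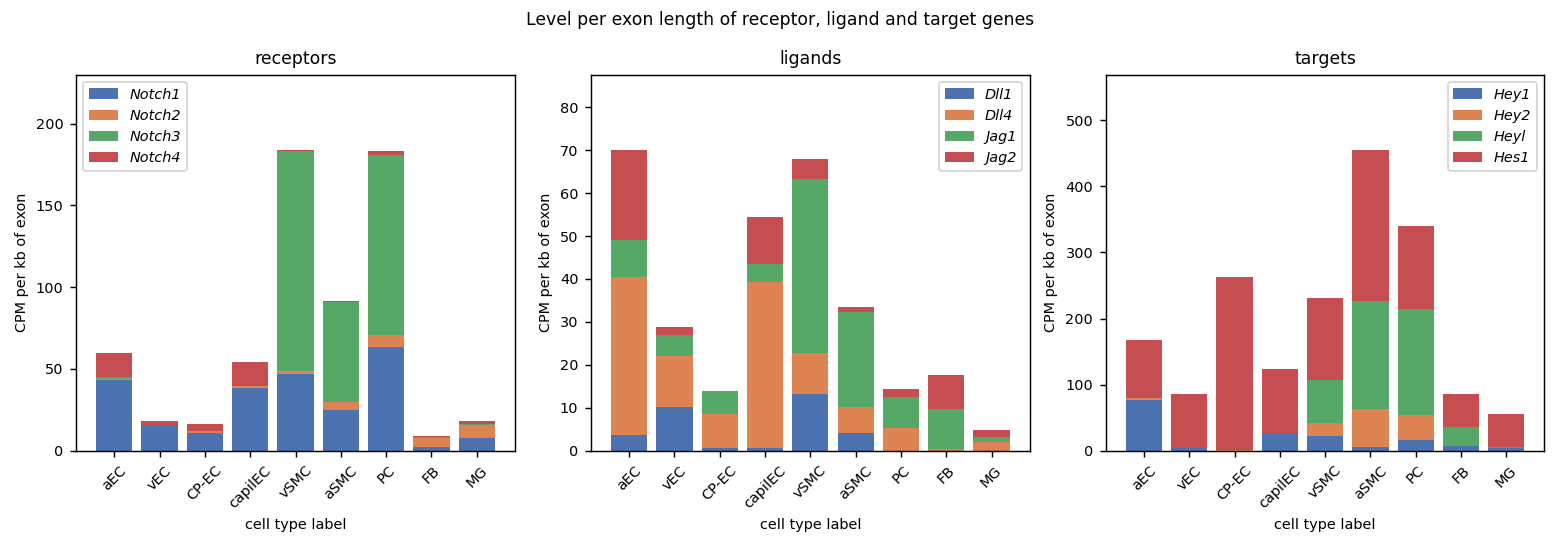
Level per exon length (CPM per kb) of receptor, ligand and target genes, stacked for each cell type label. Notch1 leads the endothelial receptors (72.6% in aEC) and Notch3 the mural ones (73.1% in vSMC), while Dll4 leads the ligands of capilEC (70.9%) and Jag1 those of aSMC (66.9%).

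The promoter of Notch3 is shown because, of the 3 receptors, it differed most between endothelial and mural labels. RefSeq promoters (GRCm38.p6) matched 7 of the 10 genes, and Hey1, Heyl and Hes1 were not among them. Windows of 200 bases, starting 250 bases before the RefSeq start of the gene, were searched on both strands for the RBPJ motif GTGGGAA, the E-box CACGTG and the N-box CACNAG, the last of these known as a binding site of HES repressors. RefSeq starts can differ from the ends of the GENCODE spans given for the genes. Those of Notch1, Notch4, Jag1, Jag2 and Hey2 lie inside their spans. The windows of Notch1 and Jag2 lie wholly inside the gene, and that of Jag1 in part. Capitals mark the 2 N-box matches, 204 to 199 and 159 to 154 bases before the start, and the window is chr17:32166941-32167140 on the minus strand.
Notch3: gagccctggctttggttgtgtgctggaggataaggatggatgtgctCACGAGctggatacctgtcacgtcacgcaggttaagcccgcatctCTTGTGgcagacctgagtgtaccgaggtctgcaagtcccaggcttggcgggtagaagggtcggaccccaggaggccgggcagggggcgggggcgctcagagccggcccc
An N-box stood in 3 of the 7 windows, those of Notch1, Notch3 and Dll4, and in 31.1% of 32851 promoter windows of the same length. No E-box stood in the 7 windows (4.34% of all). A match is a run of letters and not a site of binding.

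By level, Dll4 and Jag2 were highest in endothelial labels and Jag1 in smooth muscle labels, while the shares of cells with a read differed less. Dll4, a Delta-like ligand known from arteries and sprouting tips, lies at chr2:119325784-119335962 on the plus strand. It was at 141 CPM in aEC, 45.8 CPM in vEC, 30.2 CPM in CP-EC and 149 CPM in capilEC. The plates of aEC (88.9 to 353 CPM) and capilEC (97.5 to 184 CPM) overlapped, and those of vEC (22.7 to 78.5 CPM) lay below both. Dll4 was at 36.9 CPM in vSMC, 23.1 CPM in aSMC and 20.7 CPM in PC, but 1 cell held 96.1% of the vSMC reads and 1 cell held 76.95% of the aSMC reads. Without those cells the levels were 1.62 CPM in vSMC and 5.45 CPM in aSMC. A read was found in 34.5% of aEC, 31.1% of vEC and 32.5% of capilEC cells, against 13.8% of vSMC, 19.5% of aSMC, 27.8% of PC (95% interval 16.5 to 41.6) and 13.9% of MG cells. The PC share was close to that of vEC.

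Jag2, a Jagged ligand, was highest in the arterial label. Jag2 (chr12:112907819-112929776, minus strand) was at 146 CPM in aEC, 14.0 CPM in vEC, 0.604 CPM in CP-EC and 76.0 CPM in capilEC. The aEC level lay above that of capilEC on 4 of 4 plates, although the ranges overlapped: aEC held 29.7 CPM on s169s and at least 111 CPM on the other plates, and capilEC lay between 26.5 and 115 CPM. Other labels lay lower: 32.9 CPM in vSMC, 6.62 CPM in aSMC, 13.8 CPM in PC and 11.6 CPM in MG. The 54.4 CPM of FB came almost wholly from 1 cell, which held 99.3% of its reads, and 1 cell held 90.8% of the vSMC reads. A read of Jag2 was found in 35.3% of aEC and 23.3% of capilEC cells, 11.1% of vEC, 17.2% of vSMC, 9.76% of aSMC, 24.1% of PC (95% interval 13.5 to 37.6) and 15.3% of MG cells. The PC share was as high as that of capilEC, at a lower level.

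Jag1, the Jagged ligand known for smooth muscle recruitment, had its highest levels in smooth muscle labels. Jag1 (chr2:137081456-137116644, minus strand) was at 51.2 CPM in aEC, 27.6 CPM in vEC, 30.8 CPM in CP-EC and 24.8 CPM in capilEC. It was at 235 CPM in vSMC, 130.2 CPM in aSMC and 41.2 CPM in PC, and at 55.5 CPM in FB and 7.05 CPM in MG. The plates of vSMC (101 to 363 CPM) and aSMC (99.3 to 172 CPM) overlapped each other and lay above those of PC (15.8 to 56.3 CPM). A read was found in 37.9% of aEC and 19.2% of capilEC cells, 62.1% of vSMC, 63.4% of aSMC, 27.8% of PC and 7.30% of MG cells. Per kb of exon, Dll4 took 52.3% of the summed Dll1, Dll4, Jag1 and Jag2 level in aEC and 70.9% in capilEC, while Jag1 took 59.5% in vSMC, 66.9% in aSMC and 49.0% in PC.

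Among the targets, Hey1 was highest in aEC, and its relatives Hey2 and Heyl were highest in mural labels. Hey1 (chr3:8663359-8667256, minus strand) was at 251 CPM in aEC, 14.2 CPM in vEC, 1.21 CPM in CP-EC and 85.5 CPM in capilEC. On the plates, aEC held 694 CPM on s169s, 278 CPM on s480s, 337 CPM on s482s and 78.9 CPM on s483s, and capilEC held 86.9, 124, 89.8 and 50.8 CPM on the same plates. The aEC value was the higher on each plate. A read of Hey1 was found in 44.8% of aEC cells, 22.9% of capilEC cells and 17.5% of MG cells. In vEC, 1 cell held 90.5% of the Hey1 reads, and the level without it was 1.39 CPM. The mural labels held 70.9 CPM (vSMC), 19.7 CPM (aSMC) and 53.7 CPM (PC) of Hey1, with a read in 13.8%, 14.6% and 18.5% of their cells, shares at or near that of MG. In vSMC, 1 cell held 72.6% of the Hey1 reads, and the level without it was 21.96 CPM. The aSMC level was 10.7 CPM and the PC level 40.2 CPM without their top cells.

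Hey2 and Heyl were mural. Hey2 (chr10:30832359-30842801, minus strand) was at 15.4 CPM in aEC, 0.85 CPM in vEC, 0.906 CPM in CP-EC and 0.844 CPM in capilEC. It was at 95.2 CPM in vSMC, 263 CPM in aSMC and 174 CPM in PC, at 0.859 CPM in MG, and had no read in the 9 FB cells, where 3 reads would be 1.17 CPM. Of the aEC plates, s482s held 41.1 CPM of Hey2 and the other 3 held 1.98 CPM or less. A read was found in 4.31% of aEC and 3.94% of capilEC cells, against 20.7% of vSMC, 58.5% of aSMC and 31.5% of PC cells, with 5.11% of MG cells. Heyl (chr4:123233556-123249875, plus strand) was at 0.862 to 1.93 CPM in the 4 endothelial labels, against 331 CPM in vSMC, 834 CPM in aSMC and 819 CPM in PC. In vSMC its plates lay between 0 CPM (9 cells on s169s) and 811 CPM (s480s), beside 295 to 1150.2 CPM in aSMC and 291 to 1658 CPM in PC. A read of Heyl was found in 9.28% of capilEC cells, against 34.5% of vSMC, 80.5% of aSMC and 57.4% of PC cells, with 10.9% of MG cells. FB held 147 CPM of Heyl, with a read in 4 of 9 cells. The same label held fibroblast markers at 9332 CPM and mural markers at 685 CPM.

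The Hey2 promoter is shown because it alone of the 7 matched windows held the RBPJ motif. The window is chr10:30842834-30843033 on the minus strand, and capitals mark the match, read on the other strand, 207 to 201 bases before the start. The motif stood in 4.35% of the 32851 windows.
Hey2: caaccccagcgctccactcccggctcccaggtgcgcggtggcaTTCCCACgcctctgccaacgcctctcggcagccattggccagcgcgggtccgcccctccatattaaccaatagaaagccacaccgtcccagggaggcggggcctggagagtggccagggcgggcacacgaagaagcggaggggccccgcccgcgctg
The promoter of Nrarp, a target gene whose product inhibits Notch signalling and whose levels are given further on, is printed for comparison, since it too was high in mural labels. Its window is chr2:25180508-25180707 on the plus strand, and capitals mark an E-box 108 to 103 bases and N-boxes 179 to 174 and 79 to 74 bases before the start.
Nrarp: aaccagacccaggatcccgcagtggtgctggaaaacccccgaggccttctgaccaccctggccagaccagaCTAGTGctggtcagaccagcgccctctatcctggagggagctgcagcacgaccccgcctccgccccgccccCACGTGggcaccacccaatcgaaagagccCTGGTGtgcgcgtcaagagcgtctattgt
The printed matches do not overlap each other, and the Nrarp window holds no RBPJ motif.

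Hes1, the broadly used HES repressor, was read in every label. Hes1 (chr16:30064384-30067796, plus strand) was at 176 CPM in aEC, 166 CPM in vEC, 532 CPM in CP-EC (95% interval 508 to 558) and 198 CPM in capilEC. It was at 252 CPM in vSMC, 466 CPM in aSMC, 256 CPM in PC, 102 CPM in FB and 104 CPM in MG. In order of level, CP-EC came first, then aSMC, PC, vSMC, capilEC, aEC, vEC and MG, and the plates of neighbours in this order overlapped, with CP-EC seen on 1 plate. The thinned share with a read lay between 49.6% (MG) and 80.0% (vEC). In CP-EC, 1 of 17 cells held 29.7% of the Hes1 reads, and the level without it was 402 CPM. Genes of the dissociation response summed to 4027 CPM in CP-EC, against 4786 CPM in aEC, 4379 CPM in vEC and 2096 CPM in capilEC. They summed to 14462 CPM in aSMC and 20236 CPM in MG, and their part in the Hes1 levels was not tested.

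**Figure D3:**
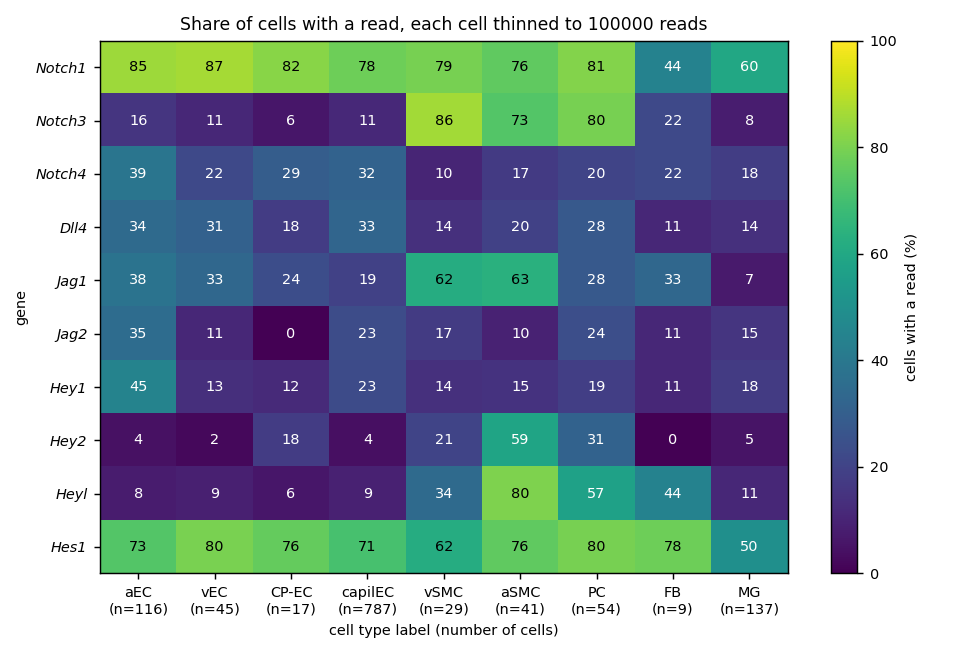
Share of cells (%) with at least 1 read of each gene after every cell was thinned to 100000 reads, by cell type label. Notch1 and Hes1 are read in 49.6% or more of the cells of each label except for Notch1 in FB (44.4%), while Heyl is read in 80.5% of aSMC and 10.9% of MG cells.

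Endothelial labels (the mean of aEC, capilEC and vEC) were then set against mural labels (the mean of PC, aSMC and vSMC). A gene passed the 2-fold rule with a difference of at least 2-fold on log2(CPM + 5), at least 20 CPM in the higher group and the same direction on each plate with 5 cells of every compared label. Of the 10 members, 3 were higher in endothelium, against 14% of 9227 genes, and 4 were lower, against 10.3%. The higher ones were the receptor Notch4 (85.0 CPM in endothelium and 11.2 CPM in mural cells, log2 difference 2.48), and the ligands Dll4 (112 and 26.9 CPM, 1.87) and Jag2 (78.5 and 17.8 CPM, 1.87). The lower ones were Heyl (1.36 and 661 CPM, -6.71), Notch3 (3.96 and 824 CPM, -6.53), Hey2 (5.70 and 177 CPM, -4.09) and Jag1 (34.5 and 136 CPM, -1.83). A stricter 4-fold rule, with at least 50 CPM and a read in at least 50% of the cells of the higher group, was passed by Notch3 and Heyl, both lower in endothelium (5.96% of 2398 genes were lower under it and 9.47% higher). Notch4 and Hey2 also differed by more than 4-fold, but fell short of a read in 50% of the cells of the higher group. With DESeq2 size factors the split of all genes called was 997 higher and 1093 lower, against 1294 higher and 946 lower with library totals, and Hes1 then passed as a further lower member. The same 7 genes passed the 2-fold rule under each of 16 other settings of scaling, pseudocount, plates and cells, although a setting that leaves out plates or cells demands the same direction on fewer plates.

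The remaining members did not separate the groups. Notch1 was lower in endothelium on 4 of 4 plates, but by -0.47 only. Hes1 differed by -0.83, in the same direction on 3 of 4 plates, and passed with DESeq2 size factors (-1.05). Hey1 averaged 117 CPM in endothelium and 48.1 CPM in mural cells, a difference of 1.20 that ran the other way on plate s483s (-0.62). Without s483s the Hey1 difference was 1.70 and passed the 2-fold rule, as it did with cells of at least 150000 reads (1.19). It also passed without the top cell of each label (1.89), where the median over all genes moved to 0.49 and 2225 genes were called higher and 531 lower.

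Endothelial markers were read in mural cells beside the endothelial members, and their part in these levels was not tested. Leaving out cells by these markers cannot decide it, since any gene that runs with the markers falls with them. PC held 24.7% of the summed endothelial marker level of capilEC, and 17.7% of its Notch4, 13.9% of its Dll4 and 18.2% of its Jag2 level. In the 17 of 54 PC cells without markers of another class (each summed marker list of the other classes at or under 10% of the median in its own cells), Notch4 was at 0.964 CPM, Dll4 at 1.93 CPM, Jag2 at 0.964 CPM and Hey1 at 2.25 CPM. The same 17 cells held 725 CPM of Notch1, 1168 CPM of Notch3, 47.9 CPM of Jag1 and 648 CPM of Heyl. Among the 14 of 29 vSMC cells without such markers Dll4 was at 1.67 CPM and Jag2 at 1.67 CPM, while Notch1 was at 703 CPM and Jag1 at 396 CPM. With these cells alone on both sides, the endothelial against mural differences were 4.17 for Dll4, 4.04 for Notch4 and 3.80 for Jag2. No plate then held 5 cells of every compared label, so the demand on plates was empty, and 2237 genes were called higher and 1979 lower. Hey1 (2.07) and Hes1 (-1.04) reached a 2-fold difference under this looser rule.

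**Figure D4:**
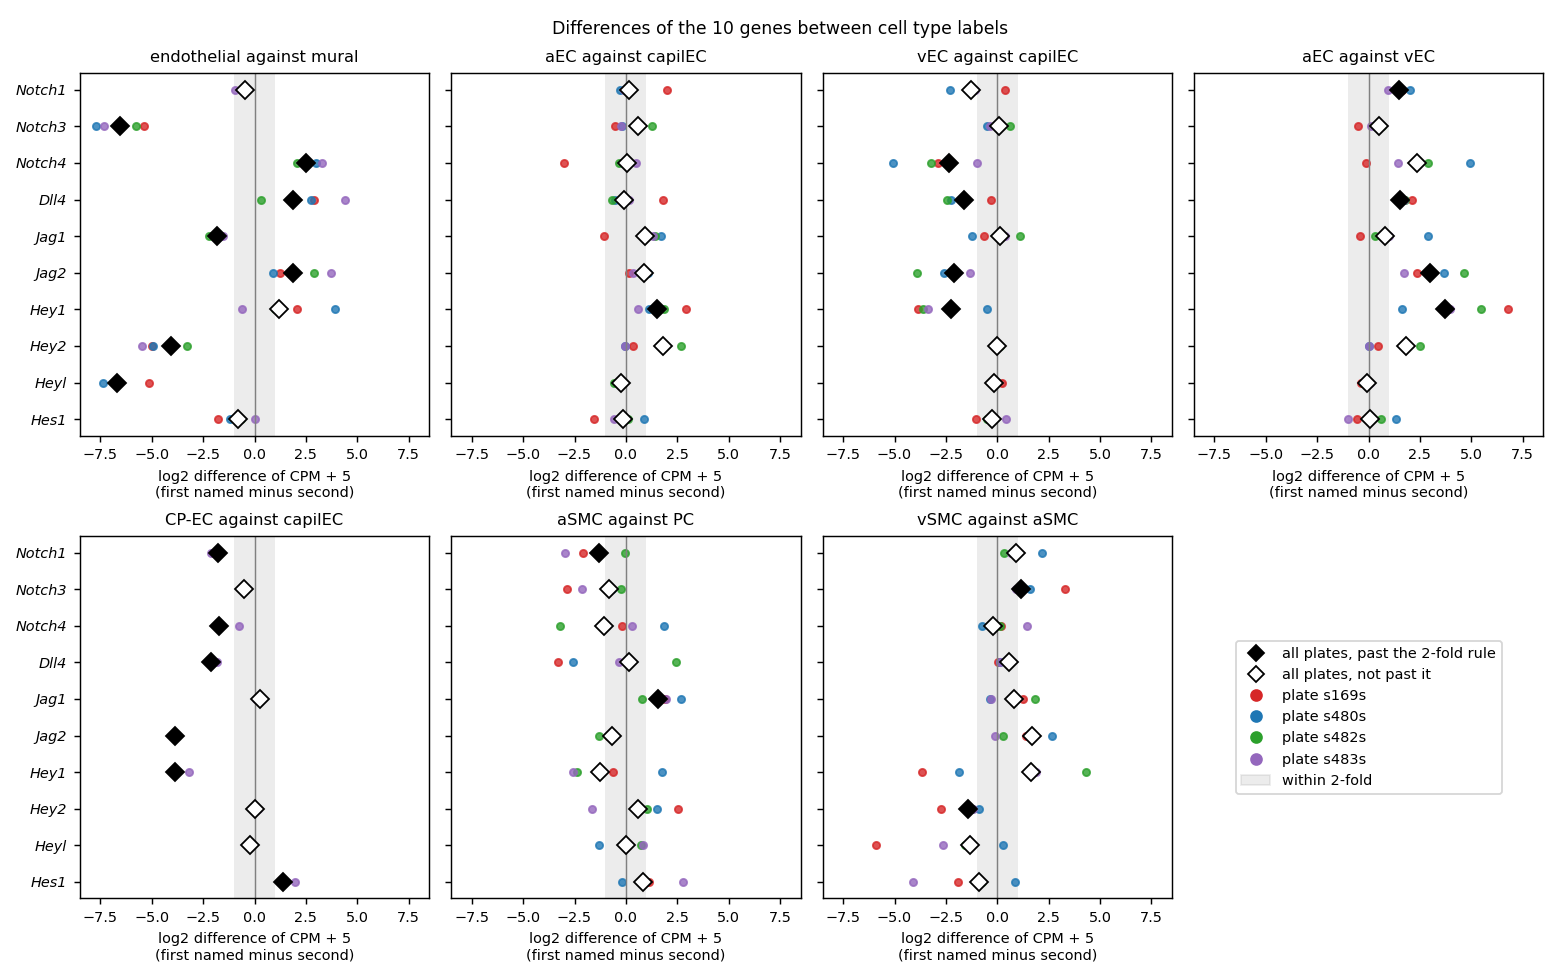
Log2 differences of CPM + 5 for the 10 genes in 7 comparisons, first named label minus second. Diamonds use all plates and are filled where the 2-fold rule was passed, coloured points are plates, and the grey band is a difference within 2-fold. Notch3 (-6.53) and Heyl (-6.71) show the widest gaps, between endothelial and mural labels.

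Within endothelium, aEC was set against capilEC. The 9 members measured above 5 CPM had a median difference of 0.60, against 0.00 over all genes measured, and 7 members reached 20 CPM. That median is the value of Notch3, which was at 6.39 CPM in aEC, with 80% of its reads in 1 cell. Of the members, Hey1 was higher in aEC (1.68% of 8312 genes were higher under the 2-fold rule) and 0 were lower (4.36%). None passed the 4-fold rule (0.803% of 2118 genes were higher and 0.519% lower). Hey1 was higher by 1.50, and by 0.59 to 2.93 on the 4 plates. Jag2 (0.90) was higher in aEC on 4 of 4 plates and fell short of 2-fold, and without s483s it passed (1.13). Jag1 (0.92) ran the other way on s169s, and without that plate it passed, at 52.7 CPM in aEC and 16.3 CPM in capilEC (1.44), as it did with cells of at least 150000 reads (1.03). Notch1 (0.17), Notch4 (0.05) and Dll4 (-0.07) differed little, and their plates stood on both sides of 0. Of 12 listed arterial genes, 5 were higher in aEC and 0 lower, with a median difference of 2.54 against 0.00 over all genes. Mgp (4.05), Bmx (3.66) and Gkn3 (3.49) led them. Each of these is also among the arterial markers set against the labels above, so their difference is no separate result.

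Against capilEC, the venous label had lower levels of 1 receptor, 2 ligands and 1 target among the members. Of the 7 members at 20 CPM or more, 4 were lower in vEC under the 2-fold rule (8.51% of 8552 genes) and 0 higher (3.53%). TMM factors moved this background to 953 lower and 199 higher genes, against 728 and 302 with library totals. None passed the 4-fold rule (0.956% of 2615 genes were lower and 1.34% higher). Notch4, Hey1, Jag2 and Dll4 could not pass it as lower, since too few capilEC cells held a read. Before thinning these shares were 38.5%, 32.3%, 29.1% and 40.9%, in the same order. Notch4, Hey1 and Jag2 did differ by more than 4-fold. The 4 lower members were Notch4 (19.1 CPM in vEC and 116 CPM in capilEC, -2.33), Hey1 (14.2 and 85.5 CPM, -2.24), Jag2 (14.0 and 76.0 CPM, -2.09) and Dll4 (45.8 and 149 CPM, -1.60). In vEC, 1 of 45 cells held 51.7% of the Notch4 reads and 1 held 67.5% of the Jag2 reads, and the levels without these cells were 9.44 and 4.57 CPM. All 4 passed with the top cell of each label left out, where 1512 genes were called lower and 94 higher. With each cell given equal weight the differences of Dll4 (-1.49) and Jag2 (-1.15) no longer passed. Notch1 differed by -1.30 over all plates, but was higher in vEC on s169s (0.37). Without s169s, Notch1 was at 253 CPM in vEC and 688 CPM in capilEC and passed the rule (-1.42). Jag1 (0.13) and Hes1 (-0.25) stayed within 2-fold. In vEC the highest plate held 3.02 CPM of Hey2 and 2.02 CPM of Heyl.

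Between aEC and vEC, which were both also compared with capilEC, 4 of the 7 members at 20 CPM or more were higher in aEC (5.86% of 8696 genes) and 0 lower (5.66%). TMM factors moved this background to 672 higher and 349 lower genes, against 510 and 492 with library totals. Hey1 was at 251 CPM in aEC and 14.2 CPM in vEC (3.74) and Jag2 at 146 and 14.0 CPM (2.99). Dll4 was at 141 and 45.8 CPM (1.53, with 1.72 to 2.10 on the plates) and Notch1 at 617 and 220 CPM (1.47, with 0.96 to 2.04). Hey1 differed on the plates by 1.62 to 6.77. Hey1 also passed the 4-fold rule (2.21% of 2758 genes were higher and 1.96% lower), with a read in 50.9% of aEC cells before thinning and 44.8% after it. Jag2 and Notch4 could not pass it as higher, with a read in 42.2% and 49.1% of aEC cells before thinning. Notch4 (2.38) was lower in aEC on s169s (-0.10), and without that plate it passed (2.24), as it did without the top cell of each label (2.98) and with cells of at least 150000 reads (2.42).

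CP-EC rested on 17 cells and on 10 cells of plate s483s for its direction, and much of the transcriptome differed. Of the 7 members at 20 CPM or more, 5 were lower in CP-EC than in capilEC under the 2-fold rule (31.7% of 8635 genes), and 1 was higher (15.5%). DESeq2 size factors moved this background to 2227 lower and 1892 higher genes, against 2739 and 1338 with library totals. None of the members passed the 4-fold rule (8.79% of 2149 genes were lower and 3.12% higher). Hey1, Jag2, Dll4 and Notch4 could not pass it as lower, since too few capilEC cells held a read. Before thinning these shares were 32.3%, 29.1%, 40.9% and 38.5%, in the same order. Hey1, Jag2 and Dll4 did differ by more than 4-fold. Hey1 (1.21 CPM in CP-EC and 85.5 CPM in capilEC, -3.87), Jag2 (0.604 and 76.0 CPM, -3.85), Dll4 (30.2 and 149 CPM, -2.13), Notch1 (155 and 549 CPM, -1.79) and Notch4 (31.4 and 116 CPM, -1.73) were lower. The median over all genes measured was -0.38, and DESeq2 size factors moved it to -0.06. Hes1 was higher (532 and 198 CPM, 2.65-fold on the same scale). The median cell differed less, with 30.4 CPM of Hes1 in CP-EC and 25.3 CPM in capilEC. A read was found after thinning in 76.5% and 71.0% of their cells. Without s483s, Hes1 differed by 0.76 and did not pass. In CP-EC Jag2 rested on 2 reads (95% interval 0.0732 to 2.18 CPM) and Hey1 on 4 reads (0.329 to 3.09 CPM).

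Among mural labels, aSMC was set against PC. Jag1 was higher in aSMC (130.2 CPM, and 41.2 CPM in PC, 1.55), against 7.18% of 9246 genes, and its plates lay between 0.77 and 2.70. Notch1 was lower in aSMC (357 CPM, and 899.7 CPM in PC, -1.32), against 8.99% of genes, and its plates lay between -2.96 and -0.06. The Notch1 call depended on plate s483s, where PC held 2317 CPM: without it Notch1 was at 377 CPM in aSMC and 629 CPM in PC (-0.73). The Notch1 call was also lost, through the demand on plates, with TMM factors (-1.15), with DESeq2 size factors (-1.19) and without cells holding markers of another class (-1.73). Without cells holding markers of another class the Jag1 difference was 0.97, just under 2-fold, and Hey2 (1.37) and Hes1 (1.60) passed as higher in aSMC, with the direction demanded on 2 plates only and 1254 genes called higher and 1178 lower, against 664 and 831 with all cells. None of the members passed the 4-fold rule (6.42% of 2337 genes were higher and 6.59% lower). Notch3 was lower in aSMC on 4 of 4 plates, by -0.84. Heyl differed by 0.03 over all cells, but by -1.32 to 0.81 on the plates. The median cell held 774 CPM of Heyl in aSMC and 66.7 CPM in PC.

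The vSMC label was set against aSMC. Notch3 was higher in vSMC (1088 CPM, and 494 CPM in aSMC, 1.13, with 0.93 to 3.29 on the plates), against 5.6% of 9060 genes. Hey2 was lower in vSMC (95.2 CPM, and 263 CPM in aSMC, -1.42, with -2.74 to -0.90), against 7.24% of genes. Both differences passed under each of the 16 settings, and no member passed the 4-fold rule (5.39% of 2339 genes were higher and 4.32% lower). Notch1 (0.89) was higher in vSMC on 4 of 4 plates and passed without s169s (1.02) and without s482s (1.27), with 3 plates left. It also passed without cells holding markers of another class (1.68), where the direction was demanded on 1 plate only and 1497 genes were called higher and 2347 lower, against 507 and 656 with all cells. Heyl (-1.32) was lower on 3 of 4 plates, and without s480s it was at 205 CPM in vSMC and 922 CPM in aSMC (-2.14).

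Receptors were often read together in the same mural cells, at shares close to the products of their separate shares. After thinning, Notch1 and Notch3 were both read in 69.0% of vSMC, 58.5% of aSMC and 68.5% of PC cells, beside products of their separate shares of 68.4%, 55.3% and 64.9%. At least 2 of the 3 receptors were read in 42.2% of aEC and 32.4% of capilEC cells, against 69.0% of vSMC, 63.4% of aSMC and 72.2% of PC cells, with 19.7% of MG cells. Jag1 and Notch3, a ligand and a receptor, were both read in 55.2% of vSMC, 43.9% of aSMC and 24.1% of PC cells. Their products were close, at 53.5%, 46.4% and 22.1%, and the small gaps of either sign were not tested. Dll4 and Jag2 were both read in 18.1% of aEC cells, where the product was 12.2%. Before thinning, which sets all cells to the same depth, aEC cells with Dll4 held a median of 298880 reads against 224742. The part of this difference in the joint share was not tested. No Hey gene was read in 47.4% of aEC and 67.5% of capilEC cells, against 51.7% of vSMC, 4.88% of aSMC and 31.5% of PC cells. Hey2 and Heyl were both read in 43.9% of aSMC, 20.4% of PC and 10.3% of vSMC cells, beside products of 47.1%, 18.1% and 7.13%. Of the few mural cells with a read of Hey1, Heyl was also read in 9 of 10 PC, 5 of 6 aSMC and 2 of 4 vSMC cells. Among cells without a read of Hey1, Heyl was read in 50% of PC, 80% of aSMC and 32% of vSMC cells.

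Of 50 other pathway genes, 39 reached 20 CPM in a label. Between endothelial and mural labels, 4 of the 31 above 20 CPM were higher and 3 lower, counts near the 14% and 10.3% of all genes, and the 37 measured above 5 CPM had a median difference of 0.09, against 0.03 over all genes measured. The higher ones were the fringe glycosyltransferases Mfng (3.07) and Lfng (2.11), which modify Notch receptors, the protease Adam10 (2.15), which cuts them, and the deltex family ubiquitin ligase Dtx3l (1.67). Mfng was at 99.1 CPM in endothelium and 7.36 CPM in mural cells, and Adam10 at 249 and 52.3 CPM. The lower ones were Nrarp (-4.20), the deltex family gene Dtx3 (-3.26) and the receptor Notch2 (-2.34). Adam10 and Dtx3 also passed the 4-fold rule.

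Nrarp was high in the mural labels, as Notch3 and Heyl were. It was at 7.95 CPM in aEC, 4.46 CPM in vEC, 26.0 CPM in CP-EC and 5.35 CPM in capilEC, against 239 CPM in vSMC, 216 CPM in aSMC and 134 CPM in PC. A read of Nrarp was found in 41.4% of vSMC, 34.1% of aSMC and 22.2% of PC cells, against 8.03% of MG cells. Notch2, the receptor left out of the list of 10, was highest in MG (90.7 CPM), PC (79.3 CPM) and FB (63.8 CPM), and took 46.3% of the receptor level per kb in MG and 64.9% in FB.

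Rbpj, the DNA-binding partner of all Notch receptors, was lower in aEC (12.8 CPM) than in capilEC (40.4 CPM, -1.35) and than in vEC (52.0 CPM, -1.68). It was the only other gene past the 2-fold rule between aEC and capilEC, of 28 above 20 CPM (1.68% of all genes were higher and 4.36% lower). In vEC the Delta-like ligand Dll1 was higher than in capilEC (43.1 and 2.82 CPM, 2.62), although 1 vEC cell held 54.7% of its reads, and Dtx3, Ep300, Spen and Hes6 were lower, which makes 1 higher and 4 lower of 28 (3.53% and 8.51% of all genes). The median of the other genes there was -0.13, against 0.07 over all genes. Between aEC and vEC, Furin (1.22), Maml1 (1.17) and Dtx2 (1.11) were higher in aEC, and Rbpj, Dll1 (-1.22) and Aph1a (-1.19) lower, 3 each of 28 (5.86% and 5.66% of all genes). In CP-EC against capilEC 4 of 28 other genes were higher, Nrarp (1.58) among them, and 9 were lower, Rbpj (-2.61) among them, counts near the 15.5% and 31.7% of all genes. In aSMC against PC the protease Adam17 was higher (1.24), and Dtx3, Dtx3l, Dtx4 and Maml2 were lower, 1 and 4 of 30 (7.18% and 8.99% of all genes). None of the 50 passed in vSMC against aSMC.

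**Figure D5:**
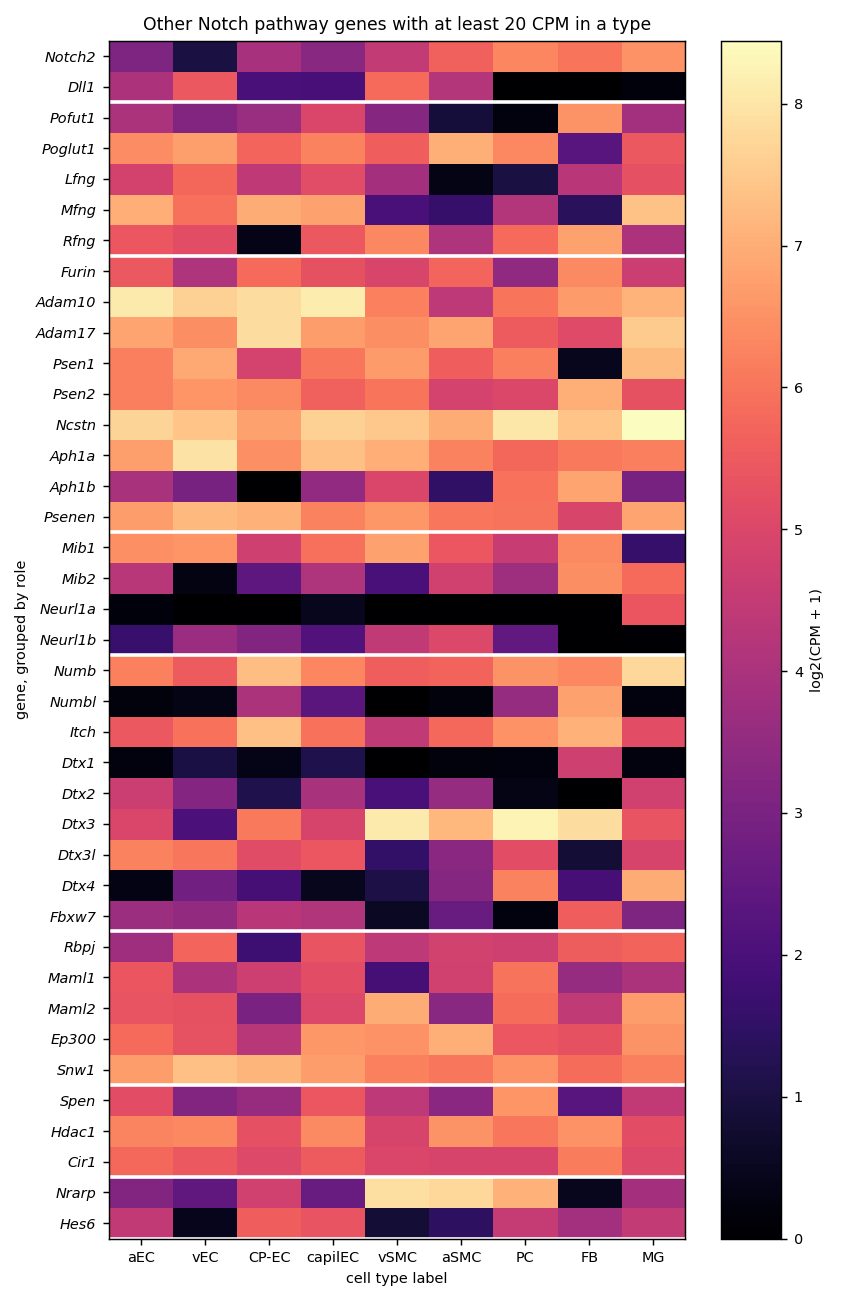
Level, as log2(CPM + 1), of the 39 other Notch pathway genes with at least 20 CPM in a label, grouped by role with white lines between groups. Nrarp is high in vSMC (239 CPM), aSMC (216 CPM) and PC (134 CPM), and Mfng is high in endothelial labels and MG.

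The genes whose levels ran most alike over the 9 labels were ranked among 8690 genes by Pearson's r of log2(CPM + 5). For Notch3 they were Cspg4 (0.996), which encodes the mural proteoglycan NG2, Slc38a11 (0.996) and Plce1 (0.994). Heyl ran with Sdc2 (0.993), the endothelin receptor gene Ednra (0.991) and Parm1 (0.990), and Hey2 with Osbpl5 (0.993), the muscle filament gene Des (0.983) and Hspb2 (0.977). Dll4 ran with Palm (0.951), Eogt (0.947) and Nos3 (0.947), which encodes the nitric oxide synthase of endothelium. Notch4 ran with Ptprm (0.947), Hspa12b (0.928) and Stra6 (0.920). Hey1 ran with the arterial gene Gkn3 (0.916), Rad54b (0.912) and Aif1l (0.905). For Jag1 they were Dynlrb1 (0.946), Tpm1 (0.908) and Slc25a4 (0.907), and for Jag2 Spata6 (0.912), Klf12 (0.906) and Ifih1 (0.902). Notch1 ran with Sike1 (0.971), Trak2 (0.965) and Eif4g1 (0.962), and Hes1 with Rock1 (0.961), Sucla2 (0.940) and Sec24c (0.936). These are descriptions over 9 labels that share plates and depth, and no member was among the 3 genes most like another.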

How the data were processed

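The data are single-cell RNA sequencing read counts of 1235 mouse brain vascular cells, with a cell type label and a plate for each. The authors deposited raw counts per gene and cell; the tools listed, per the submitters' processing notes, are featureCounts, SAMtools 1.16.1 and, as a separate entry, Subread 1.4.6-p5, and both GRCm39 and GRCm38 are given as builds with no role. Each of the 9 labels is 1 sample, so no test was run. Reads were summed over the cells of a label and scaled to CPM, 0 columns were left out, and no doublet caller was run. Differences are on log2(CPM + 5), which understates changes of low genes. The 2-fold and 4-fold rules were applied to the whole table. Only the 2-fold rule was also run on simulated cells. These held no differences between plates, so that run does not bear on plate effects. Shares of cells were taken after thinning each cell to 100000 reads (random seed 1), with exact 95% intervals. Exon lengths and gene positions come from GENCODE M21 on GRCm38, and promoters from RefSeq on GRCm38.p6. The 10 members were all named, as were other pathway genes past the 2-fold rule, Notch2, Rbpj and Nrarp always, and the 3 most alike genes of each member. 1 listed pathway gene is not reported here and was left out of the list counts. The members and lists were chosen with earlier results of these data known. Alternatives were TMM factors (edgeR 4.0.16), DESeq2 1.42.0 size factors, equal weight per cell, pseudocounts of 1 and 20 CPM, no minimum level, no demand on plates, each plate left out, the top cell left out, cells with other markers left out, cells with at least 150000 reads, and library sizes without ribosomal RNA and mitochondrial rows (3.14% of reads). Other tools were R 4.3.3, Python 3.11.15, numpy 2.4.6, pandas 2.3.3, scipy 1.17.1 and matplotlib 3.10.9.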

Additional observations from a re-analysis of the deposited data

How the results depend on the processing

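The counts of members past the 2-fold rule between endothelial and mural labels, 3 higher and 4 lower, and between aEC and vEC stayed within 1.5 times under the 16 settings tried, and no difference of a called member was reversed. In aSMC against PC, the 1 lower member became 0 with TMM factors, DESeq2 size factors, without cells holding markers of another class, or without non-endothelial cells above 25% of the endothelial level (a setting chosen after seeing the data), 3 with no demand on plates and 2 without the top cell, and 0 to 3 with a plate left out. The 1 higher member there became 2 without other-class cells, with cells of at least 150000 reads, or without plate s480s or s483s. In vSMC against aSMC, 1 higher member became 3 with no demand on plates, 4 without other-class cells, and 2 without the cells above 25%, with at least 150000 reads, or without s169s, s482s or s483s, and 1 lower member became 2 with no demand on plates or without other-class cells and 3 without s480s. In aEC against capilEC, 1 higher member became 2 without s169s or s483s or with at least 150000 reads. In vEC against capilEC, 4 lower members became 2 with equal weight per cell. In CP-EC against capilEC, 1 higher member became 0 without s483s. Leaving out plates or cells also left fewer plates on which the direction had to hold. Other causes were not tested. No paired analysis was possible because each label is 1 sample and no sample carries a replicate number; differences within the plates that labels share are given as spread only. Few cells limit vSMC, CP-EC and FB most (29, 17 and 9), and reads per cell were fewest in PC.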
